A study of Mus musculus with 8 samples.

Results

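Multipotent progenitors (MPP) were compared with short-term hematopoietic stem cells (ST-HSC) across 22180 genes on 6 microarrays, 3 for each population, chosen by sample title out of the 8 arrays of the series. The other 2 arrays held long-term hematopoietic stem cells (LT-HSC, replicates 1 and 3). Of the 22180 genes, 17576 were bright enough to be tested. The source of all cells was marrow of C57/Bl6 mice, whose age the labels give as 8 weeks, and all cells were lineage-negative, Sca1-positive and Kit-positive. ST-HSC were also CD48-negative, CD150-positive and CD34-positive. MPP were CD34-positive too, but CD48-positive and CD150-negative, so the gates of the compared populations differed in CD48 and CD150 only. LT-HSC had the ST-HSC gate except that they were CD34-negative. No allele or transgene is named for any group. The sample descriptions state no treatment, whereas a protocol text shared by all samples describes exposure to DMSO for 2 hours, 1 year in primary recipients and 3 months in secondary recipients before RNA extraction. That conflict was not resolved here, and it touches all groups alike. The labels do not say whether arrays came from separate or pooled animals, so p-values measure the spread between these arrays, which may be technical.

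LT-HSC, ST-HSC and MPP are steps along the early path of blood formation: self-renewal is lasting in LT-HSC and limited in ST-HSC, and MPP still feed all blood lineages while losing lasting self-renewal. CD150 and CD48 belong to the SLAM family of cell-surface receptors and are used to separate stem cells from progenitors. Part of the stem cell pool is known to carry transcripts of the platelet lineage, and a subset of MPP switches on the receptor Flt3 and the first lymphoid genes. The series set out to measure the chromatin remodeler gene Chd7 in these populations.

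Values are log2 signals made with robust multi-array average (RMA), on which a difference of 1 is a change of 2-fold. Differences are MPP minus ST-HSC, with limma's standard error (SE) from a model of all 8 arrays in which LT-HSC contribute only to the shared spread. A gene was called when its limma p, adjusted by Benjamini-Hochberg over the 17576 genes, was under 0.05. Arrays with the same replicate number deviated together only weakly from their population means (correlations of 0.149 to 0.230), and the labels state no pairing. The same comparison with the replicate number as a block, over the 6 arrays, is given wherever it alters a call. Every adjusted p below is limma's, and a blocked adjusted p is limma's from the model with the block. The gene lists used below were chosen with earlier results of these data known. Shares of all genes beside list counts therefore describe the lists and are no independent test of them. An array measures pooled RNA, so fewer cells carrying a transcript and less transcript per cell cannot be told apart.

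Across the 8 arrays, medians lay between 4.95 and 5.22 and no arrays held identical values. The replicate 1 arrays of LT-HSC and ST-HSC correlated least with the rest (median correlations of 0.956 and 0.968, against 0.976 to 0.985 elsewhere). Markers of myeloid cells, red cells and stroma were highest on the replicate 1 array of each population, which did not hold for T and NK cell markers in MPP or for mast cell and basophil markers in LT-HSC. The mean level of the 20 granulocyte and monocyte markers was 7.22, 5.73 and 5.48 in ST-HSC replicates 1, 2 and 3 and 6.58, 5.73 and 5.80 in MPP replicates 1, 2 and 3. The 7 measured erythroid markers gave 7.87, 6.25 and 6.67 in ST-HSC and 7.22, 5.98 and 6.31 in MPP. The 18 markers of stroma and endothelium gave 6.79, 5.50 and 5.46 in ST-HSC and 5.95, 5.43 and 5.62 in MPP. RMA values have no zero, so no marker could be read as absent. None of these markers was called. Their part in the results below was not tested, but counts are given where leaving out replicate 1 of every population changes them.

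MPP and ST-HSC differed in few genes beyond the spread of the arrays: 34 of 17576 genes were called, which is 0.193% of those tested. Of these, 12 rose in MPP (0.0683%) and 22 fell (0.125%), by 0.97 to 2.28 in size. The median difference of all tested genes was 0.01, and 143 genes differed by 1 or more, 73 higher and 70 lower in MPP. With the replicate block, 289 genes were called (1.64%), 134 higher (0.762%) and 155 lower (0.882%), and these included all 34. At an unadjusted p under 0.05 there were 1211 genes (6.89%; 638 higher, 3.63%, and 573 lower, 3.26%), where 878.8 would be reached with no difference anywhere. The MPP and ST-HSC arrays did not overlap in 2492 genes (14.2%), 1362 with MPP higher (7.75%) and 1130 with MPP lower (6.43%). The count of called genes rested on every array of the comparison. It was 19 without ST-HSC replicate 1, 2 without ST-HSC replicate 2, 1 without ST-HSC replicate 3, 20 without MPP replicate 1, and 1 without either MPP replicate 2 or MPP replicate 3. It was 71 without either LT-HSC array and 104 without replicate 1 of every population. Centring each array on its median left Slamf1 as the 1 called gene. Slamf1 was the 1 gene called in all 8 of the fits that left out a single array, and Gp5 was the second gene called without ST-HSC replicate 2. Every other called gene named below was therefore not called without ST-HSC replicate 2 or 3 or MPP replicate 2 or 3, and 15 of the 34 remained called without ST-HSC replicate 1, as did 15 without MPP replicate 1.

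**Figure D1:**
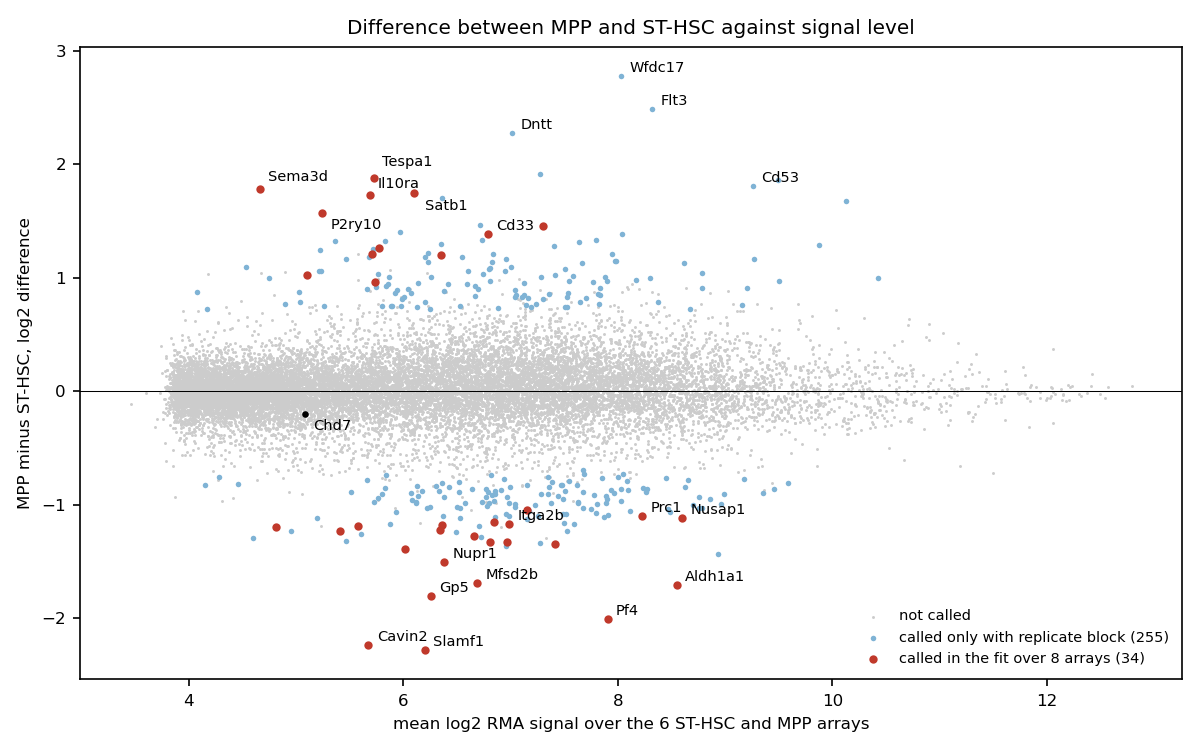
Each point is 1 of 17576 tested genes, with the mean log2 RMA signal of the 6 ST-HSC and MPP arrays on the x axis and the MPP minus ST-HSC log2 difference on the y axis. The 34 called genes (red) reach from -2.28 for Slamf1 to 1.88 for Tespa1, the 255 genes called only with the replicate block (blue) include Wfdc17 at 2.78 and Flt3 at 2.49, and Chd7 (black) lies at -0.20.

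The gate marker CD150 showed at the transcript level, and CD48 did not. Slamf1, which encodes CD150, read 7.32, 7.25 and 7.46 on the ST-HSC arrays and 4.93, 5.46 and 4.77 on the MPP arrays. All 3 MPP arrays lay well below all 3 ST-HSC arrays, and Slamf1 fell by 2.28 ± 0.19 (SE, n = 3 and 3; adjusted p = 0.00218), a 4.87-fold lower signal with a 95% interval of 3.64 to 6.51. As a gate marker it checks the sort and is no finding. Cd48 read 7.49, 6.51 and 6.57 in ST-HSC and 7.84, 6.65 and 6.96 in MPP. Those ranges overlapped, and replicate 1 was the highest array in both populations. The difference was 0.29 ± 0.34 (adjusted p = 0.999), and within each replicate number MPP was higher, by 0.14 to 0.39. Cd34, the stem and progenitor sialomucin required of both gates, read 9.547, 10.149 and 10.069 in ST-HSC and 11.003, 10.850 and 10.920 in MPP. No MPP array came down to the ST-HSC range, yet the difference of 1.00 ± 0.35 passed only with the replicate block (adjusted p = 0.456, blocked adjusted p = 0.0236). Kit, the receptor of stem cell factor required of both gates, averaged 10.14 in ST-HSC and 10.29 in MPP with overlapping arrays (adjusted p = 0.999).

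Several genes of the SLAM family lie near each other on chromosome 1, and they did not move together. RefSeq's table (GRCm38.p6) places 13 protein-coding genes within 300 kb of the start of Slamf1, of which 10 were tested. Ly9, which encodes CD229, and Cd244a, which encodes the receptor 2B4, were higher in MPP by 1.06 ± 0.24 and 1.04 ± 0.23, and passed only with the block (blocked adjusted p = 0.0228 and 0.0308, adjusted p = 0.124 for both). Ly9 starts 178.5 kb and Cd244a 208.4 kb from Slamf1, which moved the other way. Of the 9 tested genes of the SLAM list, these 3 had MPP and ST-HSC arrays that did not overlap. In 2 of them MPP was higher, against 7.75% of all genes. In the other, the gate marker Slamf1, MPP was lower, against 6.43%.

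Genes of megakaryocytes and platelets fell in MPP, with more called members than any other list over 8 arrays. Of the 26 tested genes of the platelet list, 6 were called, all lower, and 12 were lower with the block, against 0.125% and 0.882% of all genes. No member was called higher. Since the list was chosen with earlier results of these data known, these counts describe its members and are no independent test. The list's median difference was -0.88, beside 0.01 for all genes, and 22 of the 26 differences were negative. In 17 of the 26, MPP was below ST-HSC within each of the 3 replicate numbers, which held for 2540 of all 17576 genes.

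Cavin2, a coat protein of caveolae that platelets also carry, had ST-HSC signals of 6.61, 6.69 and 7.07 and MPP signals of 4.51, 4.49 and 4.66. It fell by 2.24 ± 0.28 (adjusted p = 0.0141), a 4.72-fold lower signal with an interval of 3.08 to 7.24. The MPP arrays were tightly grouped and no array of the other population came near them. Pf4, a chemokine stored in platelet alpha granules, had ST-HSC signals of 9.27, 8.71 and 8.73 and MPP signals of 6.59, 6.57 and 7.55. It fell by 2.00 ± 0.31 (adjusted p = 0.034), with MPP replicate 3 closest to ST-HSC. Gp5, a subunit of the platelet receptor for von Willebrand factor, had 7.51, 6.76 and 7.20 in ST-HSC and 5.41, 5.14 and 5.50 in MPP, without overlap. Its difference was -1.81 ± 0.22 (adjusted p = 0.0141). Mfsd2b, a lipid exporter of red cells and platelets, had 7.43, 7.61 and 7.55 in ST-HSC and 6.13, 5.38 and 6.01 in MPP. It fell by 1.69 ± 0.20 (adjusted p = 0.0141). Itga2b encodes CD41, the alpha chain of the platelet fibrinogen receptor, and had 7.55, 7.52 and 7.64 in ST-HSC and 6.32, 6.33 and 6.55 in MPP. The ST-HSC arrays spanned a far narrower range than the gap to MPP, and Itga2b fell by 1.17 ± 0.15 (adjusted p = 0.0141). The sixth called member, Gucy1b1, a subunit of the nitric oxide receptor, fell by 1.19 ± 0.18 (adjusted p = 0.0322).

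A further 6 members passed only with the block. Among them, Itgb3, the partner chain of Itga2b, differed by -1.02 ± 0.22 (adjusted p = 0.106, blocked adjusted p = 0.0259). Gp9, another subunit of the von Willebrand factor receptor, differed by -1.03 ± 0.20 (adjusted p = 0.0795, blocked adjusted p = 0.0127). Vwf itself, the clotting protein often used as a marker of platelet-biased stem cells, had 6.91, 6.27 and 6.20 in ST-HSC and 5.33, 5.19 and 5.67 in MPP. Its groups did not overlap, with a difference of -1.07 ± 0.21 (adjusted p = 0.0893, blocked adjusted p = 0.0276). Gata1, the transcription factor of the erythroid and megakaryocyte lineages, differed by -0.90 ± 0.31 (adjusted p = 0.447, blocked adjusted p = 0.0183).

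The platelet genes did not share 1 order across the 3 populations. In 20 of the 26 the mean of ST-HSC was above both LT-HSC and MPP, an order found in 5270 of all 17576 genes. Gp5 and Itga2b had LT-HSC arrays at 5.48 and 5.95, and at 6.48 and 6.30, close to the MPP arrays. Vwf had LT-HSC arrays at 7.20 and 7.22, above every ST-HSC array. Without replicate 1 of every population the list's median was -0.78. In that fit 4 of its genes were called lower, of 70 called lower among all 17576. Without MPP replicate 1, 3 of its genes were called lower, of 16 among all. The mean of the list relative to its 6-array mean was 0.53, 0.29 and 0.36 for ST-HSC and -0.38, -0.53 and -0.27 for MPP, without overlap.

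**Figure D2:**
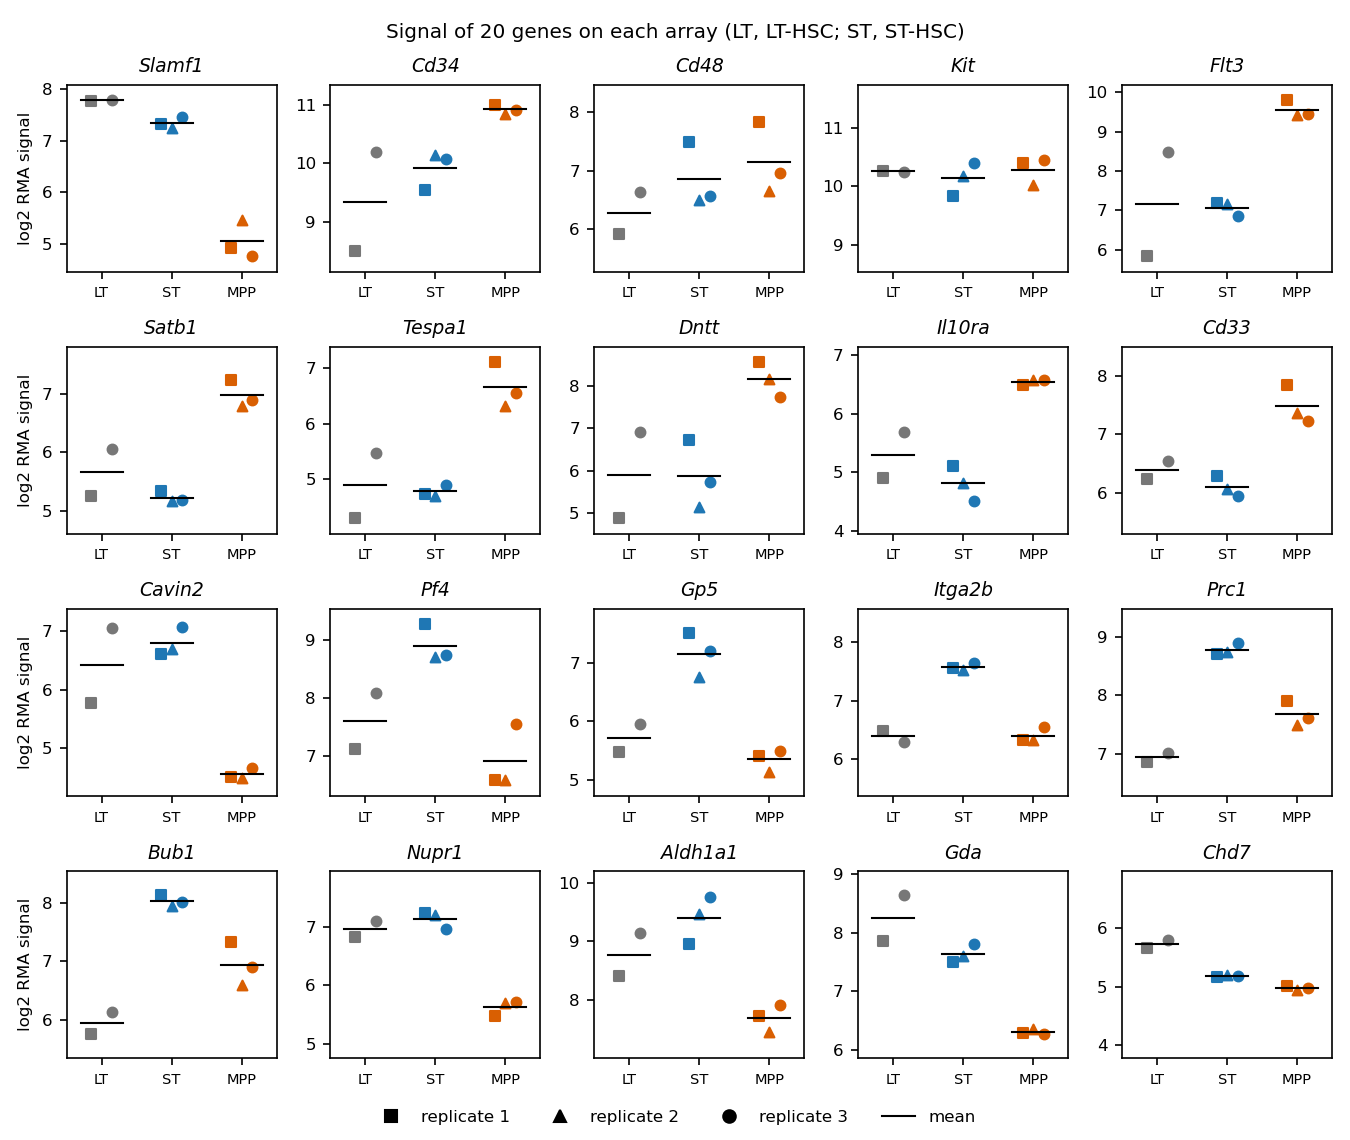
Log2 RMA signal of 20 genes on each of the 8 arrays, with squares for replicate 1, triangles for replicate 2, circles for replicate 3 and a line at each population's mean; the panels have their own y ranges. Slamf1, Cavin2, Pf4, Gp5 and Itga2b show MPP arrays below ST-HSC arrays, Flt3, Satb1, Tespa1, Dntt, Il10ra and Cd33 show them above, and the arrays of Cd48 and Kit overlap.

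Genes of mitosis were lower in MPP nearly without exception, by a moderate and even amount. Of 66 tested genes of the mitosis list, 65 had a negative difference, with a median of -0.90 and quartiles, over all genes, of -0.12 and 0.14. The arrays did not overlap in 61 of the 66, all with MPP lower, against 6.43% of all genes. In the model of 8 arrays 3 members were called, against 0.125% of all genes, and with the block 44 were called lower, against 0.882%. In 64 of the 66, MPP was below ST-HSC within each replicate number.

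Prc1, which bundles microtubules in the central spindle, read 8.70, 8.74 and 8.89 in ST-HSC and 7.91, 7.50 and 7.62 in MPP. It fell by 1.10 ± 0.16 (adjusted p = 0.0297). Nusap1, a spindle microtubule protein, read 9.27, 9.04 and 9.19 in ST-HSC and 8.38, 7.80 and 7.94 in MPP, and fell by 1.12 ± 0.19 (adjusted p = 0.0485). Sgo1, which protects cohesion at the centromere, fell by 1.15 ± 0.19 (adjusted p = 0.0396). In all 3 genes MPP replicate 1 was the MPP array closest to ST-HSC, without reaching it. Outside the list, the kinetochore genes Ska1 and Ska3 and the cohesin acetyltransferase gene Esco2 were called as well, with differences of -1.27 ± 0.17, -1.33 ± 0.21 and -1.22 ± 0.17 (adjusted p = 0.0159, 0.034 and 0.0251). Bub1, a kinase of the spindle checkpoint, read 8.13, 7.94 and 8.01 in ST-HSC and 7.33, 6.60 and 6.90 in MPP. Its difference of -1.08 ± 0.20 passed only with the block (adjusted p = 0.0749, blocked adjusted p = 0.0122). Mki67, the gene of the Ki-67 antigen, differed by -0.86 ± 0.19 (adjusted p = 0.112, blocked adjusted p = 0.0223).

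DNA replication genes shared the direction with smaller differences. All 48 tested members had negative differences, with a median of -0.46, and the arrays did not overlap in 22, against 6.43% of all genes with MPP lower. None was called in the model of 8 arrays, and 3 were lower with the block, against 0.882% of all genes. They include Rrm1, a subunit of ribonucleotide reductase, with a difference of -0.77 ± 0.23 (adjusted p = 0.293, blocked adjusted p = 0.0383). The replicate 1 pair differed least: the median difference of the replication genes was -0.18 within replicate 1, -0.60 within replicate 2 and -0.51 within replicate 3. For mitosis genes the 3 medians were -0.53, -1.09 and -0.98. Set beside LT-HSC, 65 of the 66 mitosis genes and 47 of the 48 replication genes had their lowest mean in LT-HSC, MPP in between and the highest mean in ST-HSC, an order seen in 3874 of all 17576 genes. Those orders use means of 2, 3 and 3 arrays and were not tested. Without replicate 1 of every population, 28 mitosis genes were called lower, of 70 called lower among all 17576 genes. With any 1 of ST-HSC replicate 1, 2 or 3 or MPP replicate 2 or 3 left out, no mitosis gene was called lower.

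Promoter sequences are shown for the 3 called genes of the mitosis list and for the 3 called platelet genes with the largest differences, since these groups moved together. Each is the 250 bases before the first start that RefSeq lists (GRCm38.p6), on the gene's own strand. Prc1 is at chr7:80294201-80294450 on the plus strand, Nusap1 at chr2:119618048-119618297 on the plus strand and Sgo1 at chr17:53689316-53689565 on the minus strand. Capitals mark CCAAT or TTTGAA and their reverse complements ATTGG and TTCAAA, the CCAAT box and the core of the cell cycle homology region, letters known from promoters of mitotic genes.
Prc1: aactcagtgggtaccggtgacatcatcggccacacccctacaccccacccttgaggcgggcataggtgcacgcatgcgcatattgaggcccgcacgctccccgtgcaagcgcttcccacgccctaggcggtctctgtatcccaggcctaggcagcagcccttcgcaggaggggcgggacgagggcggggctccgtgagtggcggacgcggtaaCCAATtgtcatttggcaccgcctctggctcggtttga
Nusap1: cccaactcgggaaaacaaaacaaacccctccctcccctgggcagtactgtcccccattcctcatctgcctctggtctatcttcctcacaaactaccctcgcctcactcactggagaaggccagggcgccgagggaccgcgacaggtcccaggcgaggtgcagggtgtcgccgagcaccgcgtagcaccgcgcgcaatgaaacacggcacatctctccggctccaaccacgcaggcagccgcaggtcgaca
Sgo1: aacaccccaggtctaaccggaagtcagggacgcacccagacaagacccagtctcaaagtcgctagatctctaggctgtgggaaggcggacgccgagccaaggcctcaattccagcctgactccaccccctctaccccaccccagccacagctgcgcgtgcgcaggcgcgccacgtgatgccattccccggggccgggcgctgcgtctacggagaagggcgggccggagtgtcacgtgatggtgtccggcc
Prc1 had CCAAT beginning 37 bases before its start, whereas the windows of Nusap1 and Sgo1 had no such letters. Over the 56 mitosis genes with a window in the table, 38 (67.9%) held CCAAT on either strand, as did 27 of 41 replication genes (65.9%), 7 of 21 platelet genes (33.3%) and 34.5% of all 27025 promoters. TTTGAA was in 30.4% of the mitosis windows, 9.76% of the replication windows and 16.3% of all promoters, and in 11.9% of the windows of all tested genes. Of the 10 ubiquitous control genes with a window, 30% held TTTGAA and 50% held CCAAT, which 35.4% of the tested genes' windows held. Mean GC content was 58.9% for mitosis, 59.6% for replication and 53% for all promoters, and the shares were not matched for it.

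For the platelet genes, Cavin2 is at chr1:51288876-51289125 on the plus strand, Pf4 at chr5:90772185-90772434 on the plus strand and Gp5 at chr16:30310782-30311031 on the minus strand. Capitals mark AGATAA, a form of the GATA motif, or AGGAAG, a form of the ETS motif, and their reverse complements TTATCT and CTTCCT.
Cavin2: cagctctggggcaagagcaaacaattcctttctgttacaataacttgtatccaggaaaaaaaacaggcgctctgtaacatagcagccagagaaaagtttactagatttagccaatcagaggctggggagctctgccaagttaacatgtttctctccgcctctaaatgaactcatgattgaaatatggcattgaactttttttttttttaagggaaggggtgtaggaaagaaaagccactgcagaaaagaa
Pf4: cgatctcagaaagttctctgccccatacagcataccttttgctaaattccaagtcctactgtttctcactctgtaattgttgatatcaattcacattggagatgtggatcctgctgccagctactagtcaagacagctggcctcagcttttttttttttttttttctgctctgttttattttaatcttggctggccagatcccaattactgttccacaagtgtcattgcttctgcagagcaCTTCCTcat
Gp5: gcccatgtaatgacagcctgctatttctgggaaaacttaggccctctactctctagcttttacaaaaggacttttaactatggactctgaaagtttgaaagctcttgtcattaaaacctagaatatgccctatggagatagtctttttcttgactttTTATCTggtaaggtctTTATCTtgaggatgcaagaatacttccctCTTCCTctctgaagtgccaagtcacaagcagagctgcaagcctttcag
Gp5 had TTATCT beginning 93 and 77 bases before its start and CTTCCT at 48 bases, Pf4 had CTTCCT at 9 bases, and Cavin2 had neither. AGATAA was in 4 of the 21 platelet windows (19%) and in 10.3% of all, and AGGAAG in 9 of 21 (42.9%) and in 29.2% of all. The lymphoid priming genes, most of which were higher in MPP, held AGATAA in 12% and AGGAAG in 36% of their windows. Another 5 motifs were searched on both strands. TTTGGCGC was in 0.437% of all promoters and TTTCGCGC in 0.255%, and each was in 9.76% of the replication windows. CCGGAAG was in 7.05% of all promoters, 10.8% of the tested genes' windows, 19.6% of the mitosis windows and 29.3% of the replication windows. GATAA, which AGATAA contains, was in 23% of all and 33.3% of the platelet windows. The last, GCGCAAA, was in 1.38% of all. Motifs were searched after the groups' directions were known, and a match describes letters, not a bound site.

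Genes of the stem cell state split. Of 54 tested genes of the HSC identity list, 2 were called lower and 10 were lower with the block, against 0.125% and 0.882% of all genes. None was called higher by either model, while the list's median was -0.06, close to that of all genes. Nupr1, a small stress-response chromatin protein, had 7.23, 7.20 and 6.96 in ST-HSC and 5.48, 5.69 and 5.71 in MPP. The populations were far apart and it fell by 1.50 ± 0.16 (adjusted p = 0.0136). The other called member was Itga2b, which is also a platelet gene. Not called over 8 arrays but passing with the block were Tek, the angiopoietin receptor of stem cells and endothelium (-1.19 ± 0.23, blocked adjusted p = 0.0229), and Clca3a1 (-1.29 ± 0.23, blocked adjusted p = 0.00677). The same held for the transglutaminase gene Tgm2 (-0.99 ± 0.19, blocked adjusted p = 0.019) and the cation channel gene Trpc6 (-0.99 ± 0.19, blocked adjusted p = 0.0146). The adjusted p of Tek, Clca3a1, Tgm2 and Trpc6 lay between 0.0644 and 0.0837. Within the replicate 1 pair the list's median was 0.22, whereas it was -0.28 and -0.19 within replicates 2 and 3.

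Several further called genes fell in MPP. Aldh1a1, which makes retinoic acid from retinaldehyde, had 8.96, 9.48 and 9.76 in ST-HSC and 7.73, 7.44 and 7.91 in MPP, and fell by 1.71 ± 0.25 (adjusted p = 0.0297). Dhrs3, which turns retinaldehyde back to retinol, had 7.06, 7.18 and 7.14 in ST-HSC and 8.39, 8.41 and 8.58 in MPP. Its arrays were tight and did not overlap, and the difference of 1.33 ± 0.27 passed with the block (adjusted p = 0.0923, blocked adjusted p = 0.00298). Gda, guanine deaminase, had 7.50, 7.61 and 7.80 in ST-HSC and 6.29, 6.35 and 6.27 in MPP, with LT-HSC higher still at 7.86 and 8.64, and fell by 1.33 ± 0.20 (adjusted p = 0.0321). Bex4, Ptn, which encodes the secreted growth factor pleiotrophin, and Timp3, an inhibitor of matrix metalloproteinases, fell by 1.35, 1.39 and 1.23 (adjusted p = 0.0141, 0.0297 and 0.0396). Tgfbr3, the co-receptor betaglycan of the TGF-beta family, fell by 1.05 ± 0.16 (adjusted p = 0.0297). Myom1 and Tuba8, named here after their values were seen, complete the 22 with differences of -1.20 and -1.18. Set beside LT-HSC, the mean of LT-HSC lay between those of ST-HSC and MPP in 12 of the 22, at or below both in 7 and at or above both in 3. Among the 155 genes lower with the block, it lay between in 42, at or below both in 95 and at or above both in 18.

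Most lymphoid genes were higher in MPP. Of 32 tested genes of the lymphoid priming list, 2 rose and 8 were higher with the block, against 0.0683% and 0.762% of all genes, and none was called lower by either. The median difference was 0.28, with 24 of the 32 differences positive and 8 negative. Within each of the 3 replicate numbers MPP was above ST-HSC in 16 and below it in 4, among them Ebf1 and Pax5. Of all 17576 genes, 2984 were above and 2540 below in that way. The arrays did not overlap in 12, all with MPP higher, against 7.75% of all genes. The list's mean relative to its 6-array mean was -0.33, -0.22 and -0.23 on the ST-HSC arrays and 0.36, 0.21 and 0.20 on the MPP arrays.

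Satb1, a chromatin organiser of thymocytes and early lymphoid cells, had 5.34, 5.17 and 5.18 in ST-HSC and 7.24, 6.79 and 6.90 in MPP. It rose by 1.75 ± 0.22 (adjusted p = 0.0141), a 3.36-fold higher signal with an interval of 2.42 to 4.66. Tespa1, which takes part in T cell receptor signalling, had 4.73, 4.71 and 4.91 in ST-HSC and 7.11, 6.32 and 6.56 in MPP, and rose by 1.88 ± 0.29 (adjusted p = 0.0322). Both genes kept every MPP array above the 2 LT-HSC arrays as well.

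Flt3 and Dntt had larger differences and were not called over 8 arrays. Flt3, the receptor tyrosine kinase that marks lymphoid-primed progenitors, had 7.19, 7.17 and 6.86 in ST-HSC and 9.80, 9.43 and 9.45 in MPP. Every MPP array was above every ST-HSC array, by 2.26 to 2.61 within replicate numbers. The LT-HSC arrays, which enter the shared spread, read 5.84 and 8.49. The difference of 2.49 ± 0.49 had an adjusted p of 0.0893, a blocked adjusted p of 0.000184 and an adjusted p of 0.00135 in a fit of the 6 arrays alone. Dntt, the terminal transferase that adds bases to antigen receptor joints, had 6.73, 5.15 and 5.74 in ST-HSC, 8.55, 8.16 and 7.74 in MPP, and 4.89 and 6.92 in LT-HSC. ST-HSC varied more than MPP, and the difference of 2.28 ± 0.49 had an adjusted p of 0.112, a blocked adjusted p of 0.0014 and an adjusted p of 0.0409 over the 6 arrays alone. Ltb, the lymphotoxin subunit, and Sox4, a transcription factor of early B cells, differed by 1.13 ± 0.25 and 0.97 ± 0.23 and passed only with the block (blocked adjusted p = 0.021 and 0.0281).

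Signalling genes of lymphocytes followed. Of 34 tested genes of antigen receptor signalling, 4 of which are also on the lymphoid list, Tespa1 was called and 8 were higher with the block, against 0.0683% and 0.762% of all genes, and none was called lower. Cd53, a tetraspanin of white blood cells, had 8.29, 8.47 and 8.29 in ST-HSC and 10.02, 10.34 and 10.12 in MPP, with LT-HSC at 7.25 and 9.37. The ST-HSC and MPP arrays were each tight, and the difference of 1.81 ± 0.40 passed with the block (adjusted p = 0.124, blocked adjusted p = 0.000549) and over the 6 arrays alone (adjusted p = 0.00171). Pik3ap1, the adapter BCAP that links the B cell receptor to PI3 kinase, differed by 1.39 ± 0.26 (adjusted p = 0.0779, blocked adjusted p = 0.00274). Cd52 differed by 0.98 ± 0.20 (adjusted p = 0.0893, blocked adjusted p = 0.0135). The B cell and the T and NK cell marker lists did not follow. None of 10 tested B cell markers or of 11 T and NK cell markers was called by either model, and their medians were -0.10 and -0.09. Of the B cell markers, 4 are also on the antigen receptor list and 2 on the lymphoid list. P2ry10, a lysophospholipid receptor of lymphocytes, and Btla, an inhibitory lymphocyte receptor, rose by 1.58 ± 0.23 and 1.02 ± 0.17 (adjusted p = 0.0297 and 0.0396).

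Receptors for cytokines moved in both directions, with more of them higher. Of 52 tested receptors, 21 had MPP arrays wholly above ST-HSC arrays, against 7.75% of all genes, and 2 wholly below, against 6.43%. In each direction 1 was called, Il10ra and Tgfbr3 (0.0683% and 0.125% of all genes), and with the block 6 were higher and 2 lower, against 0.762% and 0.882%. Il10ra, the ligand-binding chain of the interleukin-10 receptor, had 5.12, 4.82 and 4.52 in ST-HSC and 6.50, 6.58 and 6.58 in MPP. It rose by 1.74 ± 0.22 (adjusted p = 0.0141), and the MPP arrays were nearly equal. Il1r1, the signalling receptor of interleukin-1, had 5.97, 6.58 and 6.39 in ST-HSC and 8.54, 7.89 and 8.27 in MPP. Its difference of 1.92 ± 0.40 passed with the block (adjusted p = 0.0971, blocked adjusted p = 0.00298). Il18rap, the accessory chain of the interleukin-18 receptor, and Csf3r, the receptor of granulocyte colony-stimulating factor, differed by 1.17 ± 0.24 and 1.01 ± 0.27 (blocked adjusted p = 0.0147 and 0.0267; adjusted p = 0.0893 and 0.231).

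Myeloid genes were less uniform. Of 39 tested genes of myeloid priming, Cd33 was called and 4 were higher with the block, against 0.0683% and 0.762% of all genes. In 10 the arrays did not overlap with MPP higher, against 7.75%, and none was called lower by either model. Cd33, a sialic acid-binding receptor of early myeloid cells, had 6.28, 6.07 and 5.95 in ST-HSC and 7.85, 7.37 and 7.23 in MPP, and rose by 1.38 ± 0.20 (adjusted p = 0.0251). Emb, the cell adhesion protein embigin, and Hk3, a hexokinase of myeloid cells, differed by 1.16 ± 0.25 and 0.81 ± 0.15. They were not called over 8 arrays (adjusted p = 0.112 and 0.0795) and passed with the block (blocked adjusted p = 0.00616 and 0.0287). Cebpa, the transcription factor needed for granulocyte and monocyte development, differed by 0.66 ± 0.18 and passed neither (adjusted p = 0.221, blocked adjusted p = 0.105). Its arrays did not overlap, with 5.27, 5.53 and 5.47 in ST-HSC and 6.32, 5.90 and 6.03 in MPP.

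**Figure D3:**
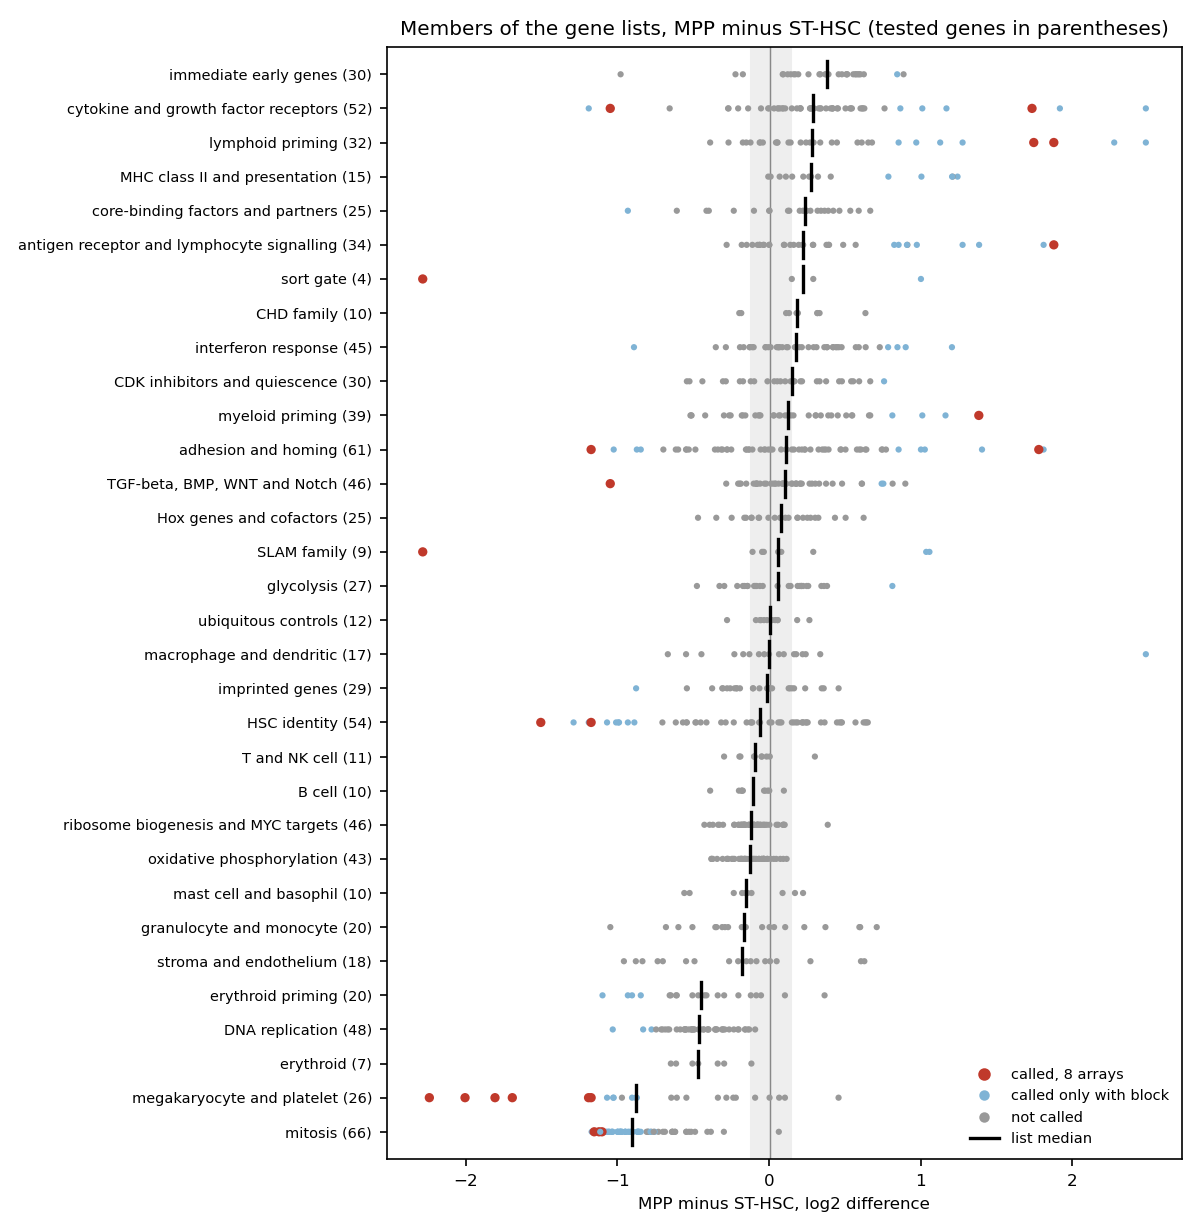
MPP minus ST-HSC log2 difference of every tested member of 32 gene lists, 1 point per gene, with black bars at list medians, a grey band over the middle 50% of all tested genes, red for genes called over 8 arrays and blue for genes called only with the replicate block. The mitosis and platelet lists lie lowest, with medians of -0.90 and -0.88, and the lymphoid, cytokine receptor and immediate early lists have medians of 0.28, 0.29 and 0.39.

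Some neighbouring genes on chromosome 11 were higher in MPP. RefSeq's table places 18 protein-coding genes within 300 kb of the start of Wfdc17, 17 of them tested. With the block, 5 of the 17 were called, all higher, against 0.762% of all genes. Wfdc17, which encodes a small secreted WAP-domain protein, had the largest difference of all 17576 genes, 2.78 ± 0.52, with 6.98, 6.92 and 6.03 in ST-HSC and 9.47, 9.45 and 9.36 in MPP. Its LT-HSC arrays read 5.78 and 8.42, and it passed with the block (adjusted p = 0.0749, blocked adjusted p = 0.000184) and over the 6 arrays alone (adjusted p = 0.00254). The chemokine genes Ccl3 and Ccl4 differed by 1.87 ± 0.39 and 1.68 ± 0.34. They too were not called over 8 arrays (adjusted p = 0.106 and 0.0929) and passed with the block (blocked adjusted p = 0.000549 and 0.0014). Ccl3 had 8.49, 8.70 and 8.49 in ST-HSC and 10.27, 10.47 and 10.54 in MPP. Their annotated spans overlap, so signals of the pair may not be independent. Wfdc18 and Ccl9 differed by 1.47 ± 0.25 and 0.86 (blocked adjusted p = 0.00942 and 0.0259). The other 12 tested neighbours were not called by either model, with Ccl6 at -0.20, Ccl5 at 0.27 and Wfdc21 at -0.68. Ccl6 lies between Ccl9 and Ccl3, so the genes higher in MPP do not form an unbroken run. The region was chosen after these values were seen.

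Genes of antigen presentation and the interferon response were not called over 8 arrays. Of 15 tested MHC class II and presentation genes, 4 were higher with the block, against 0.762% of all genes, among them H2-DMb2, a chain of the peptide-loading protein, and Ctss, the protease cathepsin S. H2-DMb2 had 4.92, 4.49 and 4.41 in ST-HSC and 6.04, 5.78 and 5.72 in MPP, with LT-HSC at 3.94 and 5.66 (1.24 ± 0.35, adjusted p = 0.247, blocked adjusted p = 0.00429). Ctss had 7.88, 7.11 and 7.04 in ST-HSC and 8.39, 8.59 and 8.68 in MPP (1.21 ± 0.23, adjusted p = 0.0749, blocked adjusted p = 0.0229). Of 45 interferon-response genes, 4 were higher and 1 lower with the block, against 0.762% and 0.882%. Oas2, an antiviral RNA sensor, differed by 1.21 ± 0.24 and Slfn2 by -0.89 ± 0.18 (blocked adjusted p = 0.0274 and 0.0332). The median of the interferon list was 0.52 within the replicate 1 pair and 0.05 and 0.14 within replicates 2 and 3.

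Adhesion genes went both ways. Of 61 tested, Sema3d rose and Itga2b fell, where 0.0683% and 0.125% of all genes did. With the block 6 were higher and 4 lower, against 0.762% and 0.882% of all genes. Those higher include Cd34, Cd37 and Cd53 and those lower include Itga2b and Itgb3, which are also on the gate, lymphoid, signalling or platelet lists above. The arrays did not overlap in 20 with MPP higher and in 8 with MPP lower, against 7.75% and 6.43%. Sema3d, a secreted semaphorin, had 3.93, 3.74 and 3.63 in ST-HSC and 5.95, 5.46 and 5.24 in MPP. It rose by 1.78 ± 0.21 (adjusted p = 0.0141), and RMA values compress differences of genes as dim as this. Itgb5, the integrin beta 5 chain, had 5.63, 5.11 and 5.04 in ST-HSC and 6.78, 6.77 and 6.45 in MPP (1.41 ± 0.29, adjusted p = 0.0958, blocked adjusted p = 0.00312). Emp1, a membrane protein, and Ablim1, an actin-binding protein, rose by 1.21 ± 0.17 and 0.97 ± 0.15 (adjusted p = 0.0259 and 0.0324). The transcription factor gene Maf differed by 1.33 ± 0.23, was not called over 8 arrays and passed with the block (adjusted p = 0.055, blocked adjusted p = 0.018). The 12 genes called higher also include A930041C12Rik, Gm19708 and 4833407H14Rik, which have no assigned name. For each of the 12, the LT-HSC mean lay between ST-HSC and MPP. Among the 134 genes higher with the block, it lay between in 94 and at or below both in 40.

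Erythroid priming genes had mostly negative differences. Of 20 tested, none was called and 4 were lower with the block, against 0.882% of all genes, among them Gata1 and Gfi1b, a repressor of the erythroid and megakaryocyte lineages, which differed by -0.93 ± 0.25 (adjusted p = 0.221, blocked adjusted p = 0.018). The list's median was -0.45. It was -0.57, -0.30 and -0.38 within replicates 1, 2 and 3, and 14 of the 20 genes were lower in MPP within each number. The list's mean relative to its 6-array mean was 0.72, -0.17 and 0.10 on the ST-HSC arrays. It was 0.26, -0.63 and -0.29 on the MPP arrays, so replicate 1 was highest in both populations. Without ST-HSC replicate 1 alone, the array in which erythroid markers were highest, the median was -0.09. That fit kept MPP replicate 1, so its groups were not balanced in this respect.

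Chd7, the gene the series asked about, was a little lower in MPP on every array. It had 5.16, 5.20 and 5.18 in ST-HSC and 5.02, 4.95 and 4.99 in MPP. The arrays did not overlap, but the difference of -0.20 ± 0.14 was small against limma's shared spread (adjusted p = 0.981). An exact two-sided permutation of the 6 labels gave p = 0.1, the smallest that 3 against 3 can reach. None of the 10 tested CHD genes was called by either model. Chd3, the brightest of them, had 10.42, 10.31 and 10.44 in ST-HSC and 10.87, 11.13 and 11.09 in MPP (0.64 ± 0.17, adjusted p = 0.231, blocked adjusted p = 0.0797).

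In the remaining lists, called genes were few or none. None was called over 8 arrays among 46 ribosome biogenesis, 43 oxidative phosphorylation, 27 glycolysis, 30 immediate early, 30 CDK inhibitor and quiescence, 25 Hox, 25 core-binding factor and 29 imprinted genes. With the block, ribosome, oxidative phosphorylation and Hox genes again gave none. Differences were small but negative in 38 of the 46 ribosome and 37 of the 43 oxidative phosphorylation genes, with a median of -0.12 in each list. Within the replicate 1 pair those medians were 0.05 and -0.03. In 9 oxidative phosphorylation genes the MPP arrays lay wholly below, against 6.43% of all genes, and in 1 wholly above, against 7.75%. The immediate early list had the highest median, 0.39, with 0.63, 0.18 and 0.31 within replicates 1, 2 and 3 and 19 of 30 genes higher in MPP within each number. Its mean relative to the 6-array mean was -0.87, 0.22 and 0.14 on the ST-HSC arrays and -0.23, 0.37 and 0.36 on the MPP arrays, so both replicate 1 arrays were the low ones. Of the 29 imprinted genes, Grb10, an adapter that damps growth factor signalling, was lower with the block (-0.88 ± 0.19, blocked adjusted p = 0.026), against 0.882% of all genes. In the WNT, Notch and TGF-beta list of 46 genes, Tgfbr3 was called lower, against 0.125% of all genes, and was lower with the block, against 0.882%. Tcf7l1 and Lrp5, a transcription factor and a co-receptor of WNT signalling, were higher with the block, against 0.762% of all genes. They differed by 0.75 ± 0.16 and 0.74 ± 0.17 (blocked adjusted p = 0.0399 and 0.0387). The 12 ubiquitous control genes had a median difference of 0.00 and none was called.

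**Figure D4:**
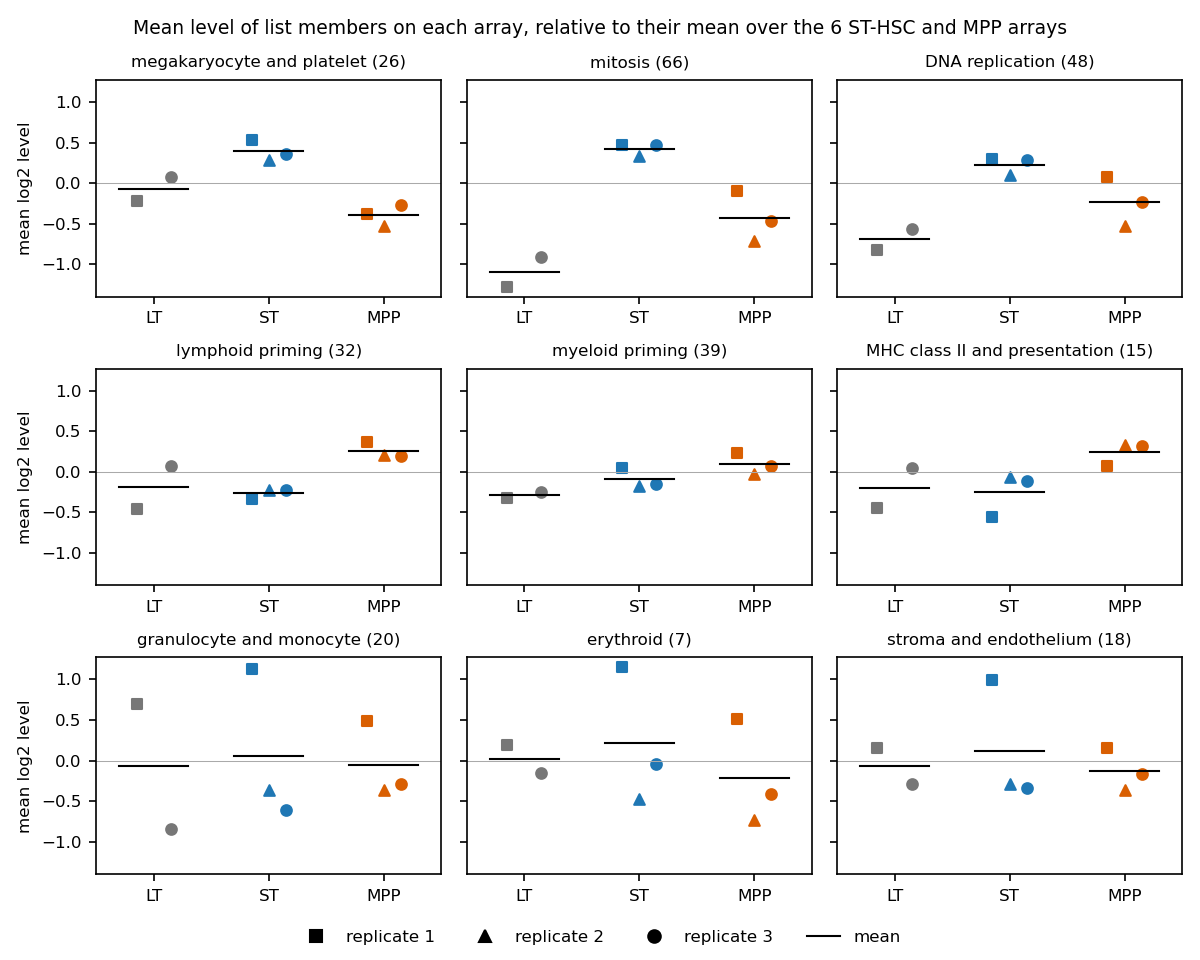
Mean log2 level of 9 gene lists on each array relative to the list's mean over the 6 ST-HSC and MPP arrays, with squares, triangles and circles for replicates 1, 2 and 3 and a line at each population's mean. Platelet and mitosis means lie higher on each ST-HSC array than on any MPP array and lymphoid means lower, whereas granulocyte, erythroid and stroma means are highest on the ST-HSC replicate 1 array, at 1.13, 1.15 and 0.99.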

How the data were processed

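Expression was measured on single-colour arrays of 3 sorted populations. Per the labels' protocols, RNA was extracted with Trizol and amplified (Ovation Pico WTA V2) and labelled (Encore Biotin). The deposited log2 values were made by the authors with RMA, per the submitters' processing notes. The log2 scale was read from their range of 2.05 to 12.9, and the version and annotation behind them are not given in the sources used here. Amplification can add spread between arrays, and RMA compresses differences of dim genes.

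Of 33649 probe sets, 23521 had 1 gene symbol in the platform annotation, 1814 had several and 8314 were unnamed here. Of 22180 genes, 1082 had several probe sets, and the brightest on average across the 8 arrays was kept. Genes with a mean at or above the 25th percentile of all probe sets (log2 3.88) were tested with limma 3.58.1 under R 4.3.3, with 5 residual and 5.93 prior degrees of freedom. The design used all 8 arrays with a mean per population and no covariate. Replicate numbers come from the labels, which state no pairing. Deviations from the population means correlated at 0.149, 0.230 and 0.209 for the same number and at -0.283 to 0.0687 for different numbers, so the block is given; it has 2 residual degrees of freedom.

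Named genes were the gate genes and Chd7, up to 12 called genes per direction without overlap of arrays, filled by smallest p, up to 8 per direction from the block model, and, per list, up to 6 called members, 4 with the smallest p and the 2 brightest. Predicted genes, small RNAs and receptor segments were left out. Of 1029 list entries in 32 lists, 950 matched a gene and 921 were tested; Ly6a, which encodes Sca1, did not match. The comparison, the lists, the naming rule and the alternatives were chosen with earlier results of these data known. The procedures were tested on simulated data.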

Additional observations from a re-analysis of the deposited data

How the results depend on the processing

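The count of called genes depended on the processing more than the differences did. It was 289 (134 higher, 155 lower) with the replicate block over the 6 arrays, 267 (126 higher, 141 lower) with the block over 8 arrays, 71 (34 higher, 37 lower) with the 6 arrays alone and 525 (247 higher, 278 lower) with array weights. It was 78 (36 higher, 42 lower) without replicate 1 of both LT-HSC and ST-HSC and 104 (34 higher, 70 lower) without replicate 1 of every population, an alternative chosen after seeing the data. It was 1 (0 higher, 1 lower) with median centring. A trended and robust prior gave 19 genes higher. Leaving out 1 array at a time gave 1 to 71 genes, 0 to 34 higher and 1 to 37 lower. Quantile normalization gave 33 genes, 26 of them among the 34, and the other filters and the mean of probe sets gave 24 to 34. The cause of these shifts was not tested, except that either LT-HSC array left alone adds nothing to the spread, so those fits equal that of the 6 arrays.

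Chd7 kept its direction and stayed uncalled in every alternative run, with differences of -0.22 to -0.18 and limma adjusted p of 0.403 to 1. Leaving out 1 array at a time gave Cd48 differences of -0.051 (without MPP replicate 1) to 0.61 and Kit differences of -0.00077 (without ST-HSC replicate 1) to 0.29. Kit was also -0.00077 without replicate 1 of both LT-HSC and ST-HSC and -0.055 without replicate 1 of every population. Single omissions gave Ccl5 differences of -0.37 (without MPP replicate 2) to 0.77 (without MPP replicate 1) and Ccl6 differences of -0.41 (without MPP replicate 1) to 0.0092 (without ST-HSC replicate 1, also where LT-HSC replicate 1 was left out with it). Among the other genes with values in the report, none changed direction under these alternatives. Genes of the naming rule that have no values there were not run through them. The number of arrays limits the precision, no scanner signals over background were used here, and signals near the lowest values carry little information on size.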
